A study of Mus musculus with 4 samples.

Results

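Tetraspanins are small proteins that span the plasma membrane repeatedly and gather other membrane proteins, among them integrins, immunoglobulin-family receptors and shedding proteases, into local assemblies. In skeletal muscle, Cd9 and Cd81 are known as brakes on the fusion of muscle cells in the mouse, and Cd82 is known as a surface marker of human muscle stem cells that associates with the dystrophin-linked complex. The 10 genes of the family described here, Cd9, Cd81, Cd82, Cd63, Cd151, Cd53, Cd37, Tspan3, Tspan4 and Tspan9, were taken by gene symbol from a table of 21264 genes. Each symbol matched a row.

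The 4 libraries form 1 group, labelled N3OE. They hold RNA of satellite cells, which are muscle stem cells, re-isolated after a transplant of iPax3 myogenic progenitors. The donor progenitors came from pluripotent stem cells and overexpressed NICD3, the active part of the Notch3 receptor, so every library shares that genotype, and cells without it are not analysed here. Recipient age and strain, animals per library and number of clones are not stated in the labels, nor is it stated that replicates are separate animals, so spreads may be technical. The RNA input was small and the cDNA was amplified before library construction, per the labels' protocols.

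Values are reads per 1e+06 reads counted (CPM), with 12544138 to 13302916 reads per library and 14292 to 14635 genes with reads. A gene without a read can still stand at up to 0.226 to 0.239 CPM, which is 3 counts per library. All 10 satellite cell markers listed, among them Pax7, Dag1 and Vcam1, reached 1 CPM in every library, against 53.6% of all genes. Their summed level lay between 4994 and 6642 CPM, most of it from Dag1 (2589 ± 266 CPM) and Vcam1 (1355 ± 526 CPM). Pax7 stood at 130 ± 12.4 CPM and Calcr, the lowest of the list, at 30.5 ± 6.14 CPM. Errors are SD with n = 4 libraries throughout. Intervals and the limits of a zero count reflect counting error only.

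Stretches before an annotated start of Cd82, Cd9 and Cd81 are shown because these 3 genes have known roles in muscle cells. A further reason is that NICD3 acts through Rbpj, a protein that binds DNA. The window of each is the 250 bases before a start in the RefSeq promoter table (build GRCm38.p6), 5′ to 3′ on the strand of the gene. For Cd82 the window shown is the one of its 4 whose promoter entry holds the start of the Ensembl transcript numbered 201. That entry runs on past the 250 bases shown, and whether the start lies within them was not checked. The window lies inside the GENCODE span of the gene, which begins at 93463140 on the minus strand, where another of the 4 windows lies (93462951-93463200). The windows of Cd9 and Cd81 also reach a little way into their genes, whose spans begin at 125494791 and 143052739. The windows lie at chr2:93462503-93462752 (minus strand) for Cd82, chr6:125494761-125495010 (minus strand) for Cd9 and chr7:143052500-143052749 (plus strand) for Cd81. Capitals mark TGGGAA, the core of the Rbpj motif, CAGCTG, an E-box read by myogenic bHLH factors, and GGGCGG, the GC box.
Cd82: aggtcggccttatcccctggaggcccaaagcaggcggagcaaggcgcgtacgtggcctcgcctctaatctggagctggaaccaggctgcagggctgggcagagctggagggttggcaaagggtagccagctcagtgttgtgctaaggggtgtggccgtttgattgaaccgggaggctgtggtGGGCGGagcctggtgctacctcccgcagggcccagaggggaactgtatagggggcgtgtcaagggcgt
Cd9: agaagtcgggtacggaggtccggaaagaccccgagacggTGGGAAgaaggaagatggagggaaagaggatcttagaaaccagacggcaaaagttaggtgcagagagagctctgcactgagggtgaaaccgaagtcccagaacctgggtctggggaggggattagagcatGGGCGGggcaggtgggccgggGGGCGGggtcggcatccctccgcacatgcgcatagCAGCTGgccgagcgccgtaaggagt
Cd81: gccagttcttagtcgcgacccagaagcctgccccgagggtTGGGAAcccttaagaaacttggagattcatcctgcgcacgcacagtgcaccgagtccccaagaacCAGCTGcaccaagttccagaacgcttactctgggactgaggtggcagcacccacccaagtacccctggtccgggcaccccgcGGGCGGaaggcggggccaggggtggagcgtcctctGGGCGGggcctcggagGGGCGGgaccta

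Both strands were searched, and no match overlapped another in these windows. Cd9 and Cd81 each held 1 TGGGAA, which began 211 and 210 bases before the start, and each held 1 CAGCTG. The GC box GGGCGG occurred once in the Cd82 window, 2 times in the Cd9 window and 3 times in the Cd81 window. Over all 32851 windows of this length in the table, 21.6% held TGGGAA, 32.7% held GGGCGG and 4271 windows held CAGCTG. The 10 members have 18 windows, of which 9 held TGGGAA (50%, in 6 members), 2 held CAGCTG and 9 held GGGCGG. Several windows belong to the same gene, and a match is a run of letters, not a measured site.

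Most of the 10 genes were abundant in the re-isolated cells. A level of 1 CPM or more in every library was reached by 7 of the 10, against 53.6% of all genes of the table. The members outside these 7 were Tspan9, Cd53 and Cd37. The median of the members' mean levels was 453 CPM, against 4.83 CPM over all genes. Together the 10 genes took 0.902% of reads in replicate 1 (95% Wilson interval 0.897 to 0.907), 1.09% in replicate 2 (1.09 to 1.10), 0.630% in replicate 3 (0.626 to 0.634) and 0.649% in replicate 4 (0.644 to 0.653).

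**Figure D1:**
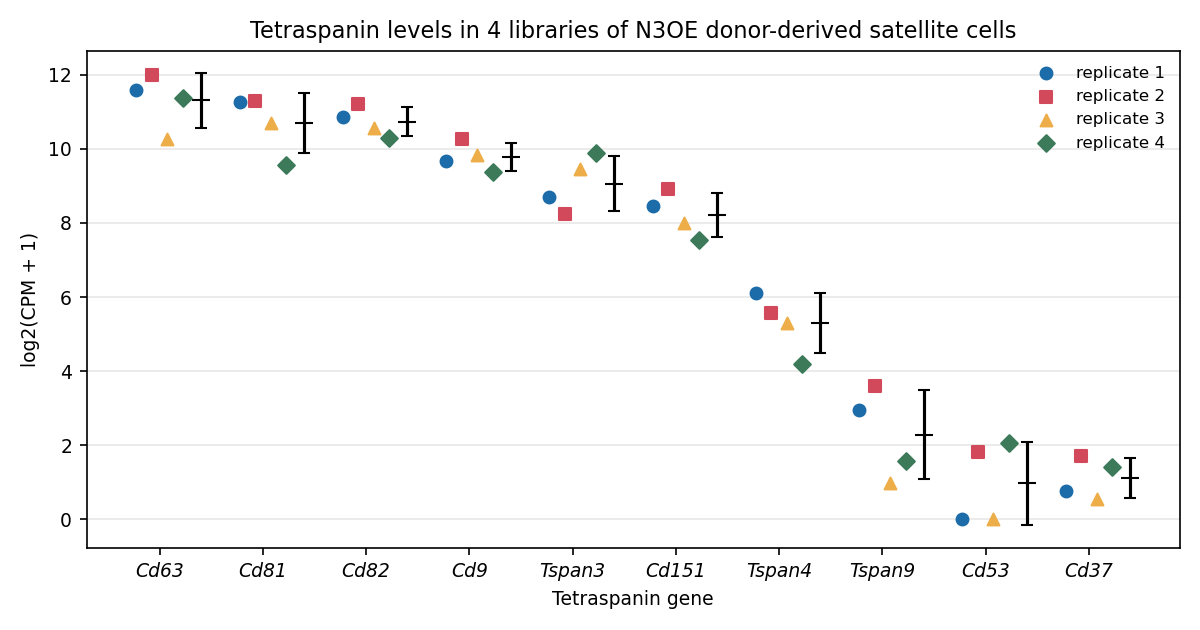
Level of each tetraspanin gene as log2(CPM + 1), 1 symbol per library, with the mean and SD (n = 4) as a bar beside them. Cd63, Cd81, Cd82 and Cd9 have the highest means, Tspan3 lies above Cd81 and Cd9 in replicate 4 (943 CPM against 750 and 658 CPM), and Cd53 and Cd37 stay below 4 CPM in all 4.

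Cd82 (ENSMUSG00000027215, chromosome 2, 93419111 to 93463140, GENCODE M21 on GRCm38, the assembly of mm10) had 1864, 2347, 1499 and 1262 CPM in replicates 1 to 4. The highest value, in replicate 2, was 1.86 times the lowest, in replicate 4. Its mean of 1743 ± 473 CPM exceeded that of 99.8% of the genes in the table. As SD of log2(CPM + 1), its spread was 0.39, and 17.03% of the 9202 genes that averaged at least 10 CPM had a smaller one.

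Cd9 (ENSMUSG00000030342, chromosome 6, 125460266 to 125494791) had 810, 1218, 917 and 658 CPM in replicates 1 to 4. Replicate 2 was high and replicate 4 low, as for Cd82. The mean was 901 ± 236 CPM and the SD on the log2 scale 0.37, with 15.0% of comparable genes below it. Exons of Cd9 share 218 bases with a non-coding transcript on the opposite strand, so some of its reads cannot be assigned with certainty.

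Cd81 (ENSMUSG00000037706, chromosome 7, 143052739 to 143067934) is a close relative of Cd9. It had 2444, 2503, 1662 and 750 CPM in replicates 1 to 4, with replicate 4 below the other three. The mean was 1840 ± 822 CPM. The SD on the log2 scale was 0.81, larger than for 82.6% of comparable genes, and 0.33 without replicate 4. Its exons share 104 bases with a non-coding transcript on the opposite strand.

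Cd63 (ENSMUSG00000025351, chromosome 10, 128900989 to 128912822), a protein of late endosomes, lysosomes and extracellular vesicles, had the highest mean per kb of exon, given below. Its values were 3063, 4037, 1235 and 2663 CPM in replicates 1 to 4, with a mean of 2750 ± 1163 CPM. Replicate 3 was the low library here. The SD on the log2 scale was 0.73, and 0.31 without replicate 3.

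Tspan3, a widely expressed member of the family, and Cd151, a partner of laminin-binding integrins, came next. Tspan3 (chromosome 9, 56131725 to 56165477) had 414, 299, 697 and 943 CPM in replicates 1 to 4, a mean of 588 ± 290 CPM. Its highest value was in replicate 4 and its lowest in replicate 2, the reverse of Cd82, Cd9 and Cd151. Cd151 (chromosome 7, 141467392 to 141471473) had 351, 480, 252 and 185 CPM, a mean of 317 ± 128 CPM. Exons of Cd151 share 193 bases with a non-coding transcript on the opposite strand.

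Tspan4, known from migrasomes, the vesicles left behind by migrating cells, was lower but present in every library. Tspan4 (chromosome 7, 141475240 to 141493427) lies next to Cd151 and had 68.4, 46.8, 38.1 and 17.5 CPM in replicates 1 to 4. Its mean was 42.7 ± 21.1 CPM, and its exons share 292 bases with Chid1 on the opposite strand. Tspan9 (chromosome 6, 127961396 to 128143594), best known in platelets, had 6.72, 11.2, 0.995 and 1.99 CPM. Replicates 1 and 2 were high and replicates 3 and 4 low, and the mean was 5.23 ± 4.70 CPM, or 3.24 CPM without replicate 2. Endothelial markers were read beside it. All 10 reached 1 CPM in every library, against 53.6% of all genes. Their sums were 385, 312, 133 and 162 CPM in replicates 1 to 4. Of the 10, 7 were highest in replicate 1 and 3 in replicate 2, against 25.7% and 22.3% of all genes with a read. The most abundant were Eng (117 ± 62.0 CPM), Kdr (42.3, 55.8, 6.58 and 6.94 CPM) and Tek, which was lowest in replicate 1 (19.5, 32.7, 27.3 and 30.3 CPM). The part of endothelial cells in the level of Tspan9 was not tested.

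Cd53 and Cd37 are leukocyte tetraspanins and were the lowest members. Cd53 (chromosome 3, 106759921 to 106790149) had 0, 34, 0 and 40 reads in replicates 1 to 4, which is 0, 2.56, 0 and 3.19 CPM. The exact Poisson interval was 1.77 to 3.57 CPM in replicate 2 and 2.28 to 4.34 CPM in replicate 4, and the mean was 1.44 ± 1.68 CPM, or 0.852 CPM without replicate 4. By the same interval the zeros allow up to 0.288 CPM in replicate 1 and 0.282 CPM in replicate 3. By the limit of 3 counts they allow up to 0.235 and 0.230 CPM. Cd37 (chromosome 7, 45233632 to 45239115) had 9, 30, 6 and 21 reads, which is 0.704, 2.26, 0.459 and 1.67 CPM. Its exons share 13 bases with Tead2 on the opposite strand. Both genes had more reads in replicates 2 and 4 than in replicates 1 and 3.

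Lists of immune cell markers were read in the same libraries, where the median gene of the table averaged 4.83 CPM. The pan-leukocyte gene Ptprc (CD45) had 0.704, 1.58, 0 and 0.957 CPM, and 2 of the 8 pan-leukocyte genes reached 1 CPM in every library, with a median of 0.866 CPM. The 8 genes summed to 25.3, 34.8, 23.0 and 22.4 CPM in replicates 1 to 4, most of it from Arhgdib, which was highest in replicate 1 and lowest in replicate 4 (22.5, 17.4, 18.5 and 13.3 CPM). Laptm5, a lysosomal protein of leukocytes, had 1.17, 7.67, 1.30 and 3.91 CPM, whereas Coro1a had no read in replicates 1 and 2 and Tyrobp none in replicate 4. Macrophage markers were not low beside the rest of the table. Of 10 listed, 6 reached 1 CPM in every library, against 53.6% of all genes, with a median of 6.86 CPM. They summed to 36.5, 178, 74.3 and 99.3 CPM in replicates 1 to 4, and 9 of the 10 were highest in replicate 2. Of all genes with a read, 22.3% were highest there. Lyz2, the lysozyme of myeloid cells, led with 11.1, 65.6, 31.8 and 38.0 CPM, before Ctss at 11.5 ± 8.77 CPM. Adgre1 (F4/80) had 0, 15.1, 3.44 and 8.37 CPM, Csf1r 3.83, 12.2, 7.43 and 4.54 CPM and Cd14 11.6, 10.7, 8.73 and 5.18 CPM, so that the order of the libraries differed among these genes. Of 5 B cell markers none reached 1 CPM in every library, and Ms4a1 and Pax5 had no read in any. Of 7 T cell markers 2 did so, Lck and Cd3e, while Cd3g and Cd2 had no read in any library. Whether the reads of Cd53 and Cd37 came from such cells was not tested, and in bulk RNA fewer cells of a type and less RNA per cell cannot be told apart.

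**Figure D2:**
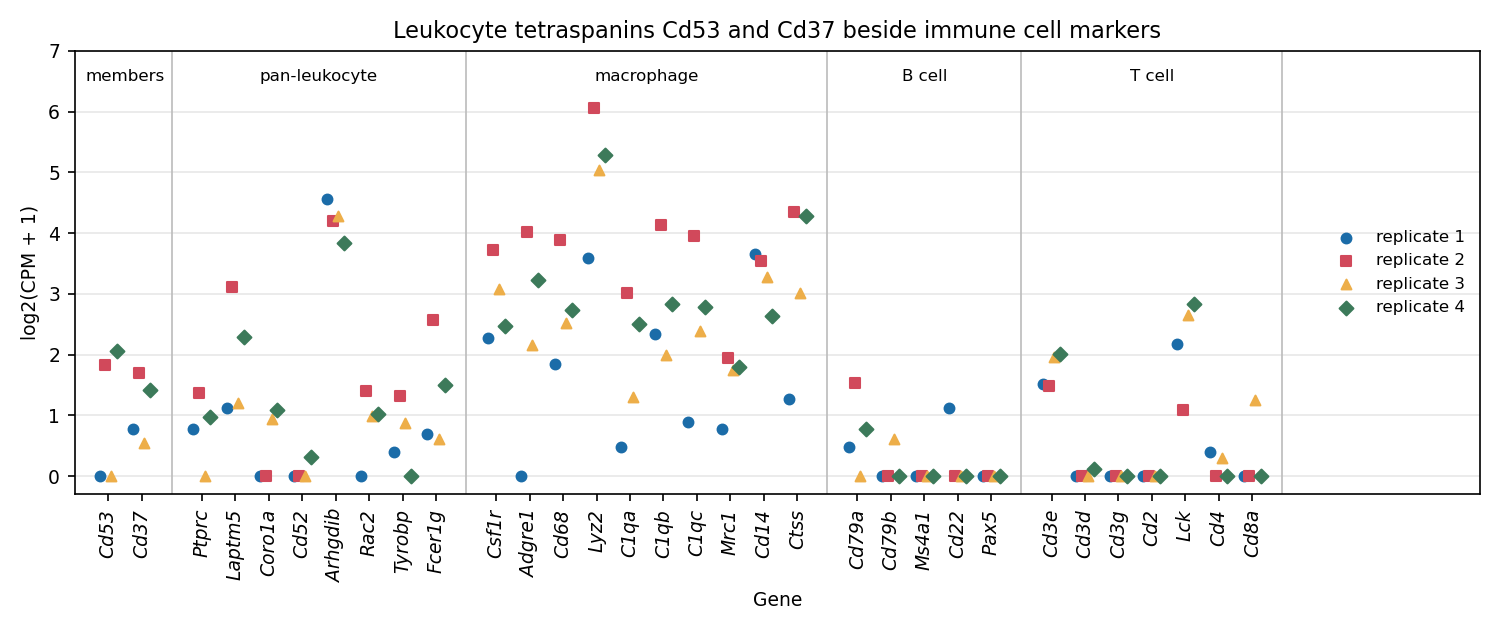
Cd53 and Cd37 beside the pan-leukocyte, macrophage, B cell and T cell markers, as log2(CPM + 1) with 1 symbol per library. Cd53 lies at 0 in replicates 1 and 3. In replicate 2, 9 of 10 macrophage markers are highest, against 22.3% of all genes with a read, and the 10 sum to 178 CPM.

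Levels of different genes were compared per kb of summed exon, since CPM grows with transcript length. On that scale the order was Cd63 (747 ± 316 CPM per kb), Cd81 (639 ± 285), Cd82 (580 ± 157), Cd9 (441 ± 116), Tspan3 (138 ± 67.8), Cd151 (116 ± 46.7), Tspan4 (19.6 ± 9.69), Tspan9 (1.05 ± 0.945), Cd53 (0.824 ± 0.963) and Cd37 (0.361 ± 0.238). Coding length in place of exon length gave the same order of means, and was read for the members only. Neighbours were called apart where the within-library log2 difference had 1 sign in 4 of 4 libraries and a mean above its SD. Cd82 lay above Cd9 (0.39 ± 0.20), Cd9 above Tspan3 (1.78 ± 1.06), Cd151 above Tspan4 (2.59 ± 0.49) and Tspan4 above Tspan9 (4.21 ± 0.98). Cd53 above Cd37 (0.88 ± 0.65) also met the rule, but Cd53 had no read in replicates 1 and 3. The sign of that difference depends on the pseudocount, as given below. Cd63 and Cd81 (0.25 ± 0.94), Cd81 and Cd82 (0.03 ± 0.50), Tspan3 and Cd151 (0.20 ± 1.33) and Tspan9 and Cd53 (-0.20 ± 1.44) did not differ beyond their spread. The top of the order changed between libraries, with Cd81 first in replicates 1 and 3 and Cd63 first in replicates 2 and 4. In replicate 4 Cd81 stood at 260 CPM per kb, below Cd63 (723), Cd82 (420) and Cd9 (322). In CPM without length, Cd81 (750) lay above Cd9 (658) there.

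Within each library, 7 pairs of members were compared by a two-sided exact permutation test that flips the signs of the differences, whose smallest possible p with 4 libraries is 0.125, so none could pass 0.05. Differences are on the scale of log2(CPM + 1) less log2 of exon length in kb. Cd82 exceeded Cd9 by 0.39 ± 0.20, with 0.64, 0.39, 0.15 and 0.38 in replicates 1 to 4 (exact p = 0.125, adjusted over the 7 pairs 0.219). Cd151 minus Cd9 was -1.98 ± 0.33 and Tspan4 minus Tspan9 4.21 ± 0.98, each with 1 sign in 4 of 4 libraries and the same exact p. Cd9 minus Cd81 was -0.42 ± 0.58, negative in 3 of 4 libraries (exact p = 0.25, adjusted 0.35). The exception was replicate 4, where Cd9 exceeded Cd81 by 0.31. That sign depends on exon length, since without length Cd9 had 658 CPM there and Cd81 750 CPM. The mean difference was -0.92 without length correction and -0.86 with coding length (exact p = 0.125 for each, by the same permutation test). Cd82 minus Cd81 was -0.03 ± 0.50, from -0.45 in replicate 1 to 0.69 in replicate 4 (exact p = 1). Cd63 minus Cd82 was 0.28 ± 0.59, positive in 3 of 4 libraries (exact p = 0.5, adjusted 0.583). Cd53 minus Cd37 gave 0.88 ± 0.65 in 4 of 4 libraries (exact p = 0.125), but 2 of these libraries have no Cd53 read, so there the sign comes from the pseudocount and the shorter exons of Cd53, and with a pseudocount of 0.1 CPM the mean was -0.09.

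The members were set beside 21 other listed tetraspanins. Of these, 15 reached 1 CPM in every library, against 53.6% of all genes. The 3 without a read in any library were Tspan10, Upk1b, a urothelial gene, and Prph2, a photoreceptor gene. Of all 31 genes together, 22 reached 1 CPM in every library. The 10 members took 81.9, 80.9, 77.1 and 77.6% of all tetraspanin reads in replicates 1 to 4. Cd63, Cd81, Cd82 and Cd9 alone took between 63.8 and 74.7%. The share of Cd82 stayed between 15.1 and 18.3%, whereas that of Cd81 was 22.2, 18.5, 20.3 and 8.97% and that of Tspan3 3.75, 2.21, 8.52 and 11.3%. Per kb of exon, the 6 highest tetraspanins were all among the 10 members. That ranking depends on exon length, which is 8183 bases for Tspan15, 4274 for Tspan3 and 2741 for Cd151. In CPM without length, Tspan15 (747) lay above Tspan3 (588), and Tspan12 (370) lay above Cd151 (317). The next were Tspan12 (112 ± 45.4 CPM per kb), which takes part in Norrin and Frizzled signalling, Tspan15 (91.3 ± 34.01) and Tspan31 (87.3 ± 40.4), beside Cd151 at 116 ± 46.7.

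**Figure D3:**
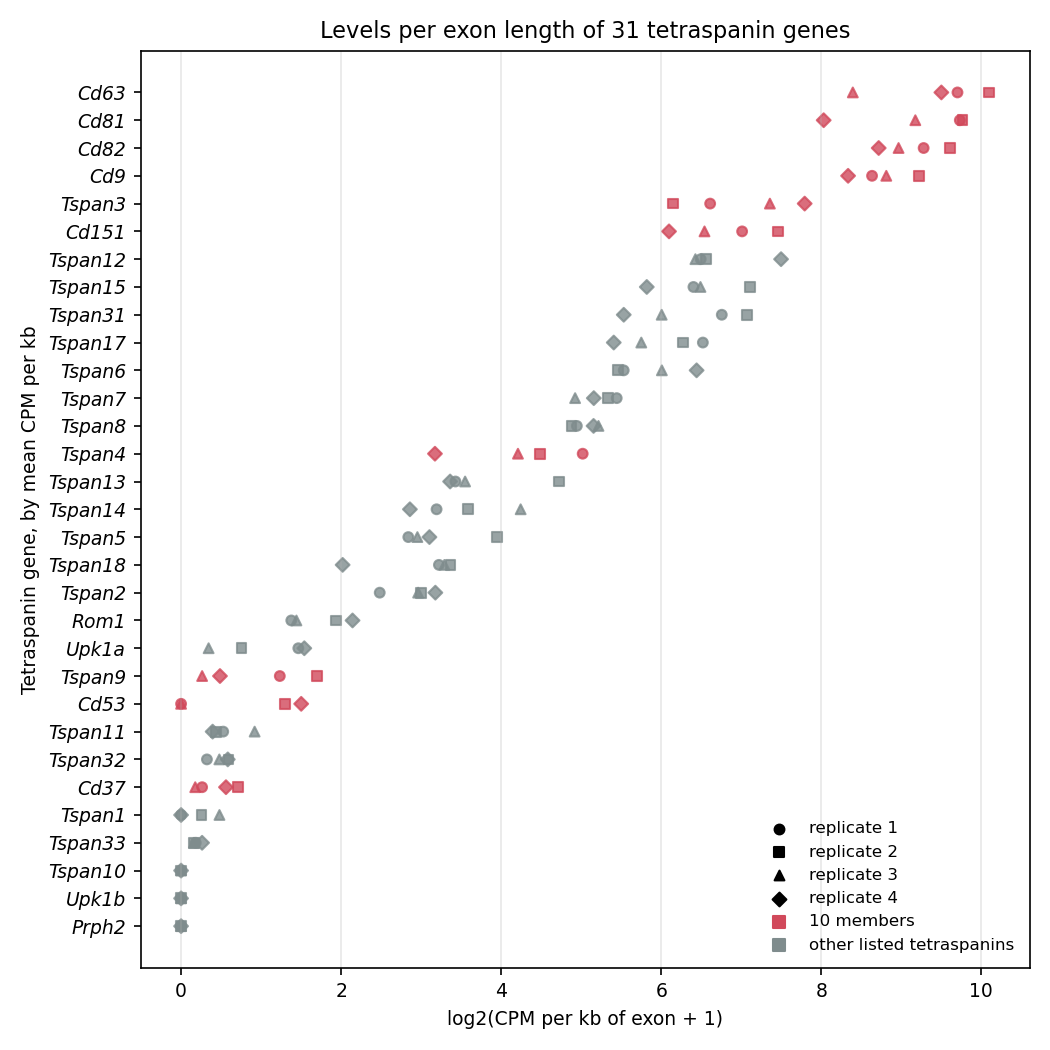
Levels of 31 tetraspanin genes as log2(CPM per kb of exon + 1), ordered by mean, 1 symbol per library, with the 10 members in red. Cd63, Cd81, Cd82 and Cd9 lie above all other tetraspanins by mean, from 441 to 747 CPM per kb, and Tspan10, Upk1b and Prph2 lie at 0.

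Tspan15 belongs to the TspanC8 group, tetraspanins that escort the protease Adam10, which cleaves Notch receptors among other substrates. Tspan15 had 684, 1124, 728 and 454 CPM in replicates 1 to 4. Per kb of exon it stood at 91.3 ± 34.01, beside 65.3 ± 22.3 for Tspan17, 10.8 ± 5.12 for Tspan14 and 8.72 ± 3.83 for Tspan5. Tspan33 had a mean of 0.738 CPM and Tspan10 no read. Adam10 itself had 63.9, 131, 146 and 240 CPM, highest in replicate 4, where Tspan15 was lowest.

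Among 17 listed partners of tetraspanins, 14 reached 1 CPM in every library, against 53.6% of all genes. The list summed to between 2508 and 3850 CPM. Itgb1, the integrin beta 1 chain, stood at 197 ± 84.9 CPM per kb and Itga7, the alpha chain of the muscle laminin receptor, at 365 ± 48.5 CPM, which is 45.05 ± 5.99 CPM per kb. The integrin chains Itga3 and Itga6, best known as partners of Cd151 in epithelia, stood at 0.667 ± 0.482 and 0.771 ± 0.0949 CPM per kb, below Cd151 at 116 ± 46.7. Igsf8 and Ptgfrn, direct partners of Cd9 and Cd81, had 20.1 ± 4.37 and 10.8 ± 3.98 CPM per kb, against 441 ± 116 for Cd9 and 639 ± 285 for Cd81. Hbegf, a growth factor whose precursor binds Cd9, reached 49.4 ± 22.3 CPM per kb. Ifitm3, an interferon-induced membrane protein, had 899, 735, 336 and 283 CPM in replicates 1 to 4.

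Genes of muscle cell fusion, the process that Cd9 and Cd81 are known to restrain in the mouse, were measured in the same libraries. Of 10 listed, 7 reached 1 CPM in every library, against 53.6% of all genes. The fusion proteins Mymk and Mymx had 5.94, 24.1, 30.5 and 23.6 CPM and 2.89, 5.79, 19.4 and 12.99 CPM in replicates 1 to 4. Per kb they stood at 13.9 ± 6.99 and 9.99 ± 7.21, far below Cd9 and Cd81 in all 4 libraries. M-cadherin (Cdh15) stood at 184 ± 40.7 CPM per kb.

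A list of 12 genes of endosomes and vesicles, the compartment of Cd63, includes Cd63 itself. Of the 12, 11 reached 1 CPM in every library, against 53.6% of all genes, with Rab27a as the exception. Sdcbp, the adaptor syntenin that binds the tail of Cd63, had 502, 712, 790 and 1448 CPM in replicates 1 to 4. The lysosomal membrane genes Lamp1 and Lamp2 had 419, 533, 373 and 208 CPM and 431, 597, 693 and 1225 CPM. Neither Sdcbp nor Lamp2 shared the low value of Cd63 in replicate 3. After the correction for transcript GC content and length given below, the SD of Lamp2 on the log2 scale was 0.085 in place of 0.63. Its deviations from its mean then ran from -0.10 in replicate 3 to 0.07 in replicate 2, against -0.98 for Cd63 in replicate 3. Lamp1 stayed lowest in replicate 4 (-0.59 in place of -0.80), and corrected values of Sdcbp were not read. Per kb, Cd63 (747 ± 316) lay above Rab7 (205 ± 58.0), Lamp1 (143 ± 50.5), Sdcbp (125 ± 59.2) and Lamp2 (77.1 ± 35.9). Timp1, a secreted protease inhibitor that binds Cd63, reached 109 ± 40.4 CPM per kb.

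Members differed in which library was high. Replicate 2 was the highest library for 7 of the 10 members, against 22.3% of the 16448 genes with a read. Replicate 4 was the lowest for 5 members, Cd81, Cd82, Cd9, Cd151 and Tspan4. The share of all genes that were lowest in replicate 4 was not computed. Of the 7 members that averaged at least 10 CPM, 4 had an SD above 0.62, the median of all such genes. These were Cd81 (0.81), Tspan4 (0.80), Tspan3 (0.74) and Cd63 (0.73), while Cd151 (0.59), Cd82 (0.39) and Cd9 (0.37) lay below it.

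The libraries also differed by base composition. In the quartile of genes lowest in transcript GC content, the median of replicate 1 minus replicate 4 was -1.07 on the log2 scale, and in the highest quartile it was 0.72. Transcript GC content was 45.9% for Cd9, 49.6% for Cd63, 50% for Tspan3, 52.3% for Cd81, 54.4% for Cd151, 55.3% for Cd82 and 58.1% for Tspan4. Values were therefore also corrected in each library for transcript GC content and length. Replicate 1 minus replicate 4 was then -0.08 in place of 0.56 for Cd82, 0.34 in place of 0.92 for Cd151 and 1.04 in place of 1.91 for Tspan4. For Cd81 it was 1.20 in place of 1.70, and for Tspan3 -1.45 in place of -1.19. The SD after correction was 0.27 for Cd82 and 0.82 for Tspan3, with 12.3% and 90.1% of comparable genes below them.

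**Figure D4:**
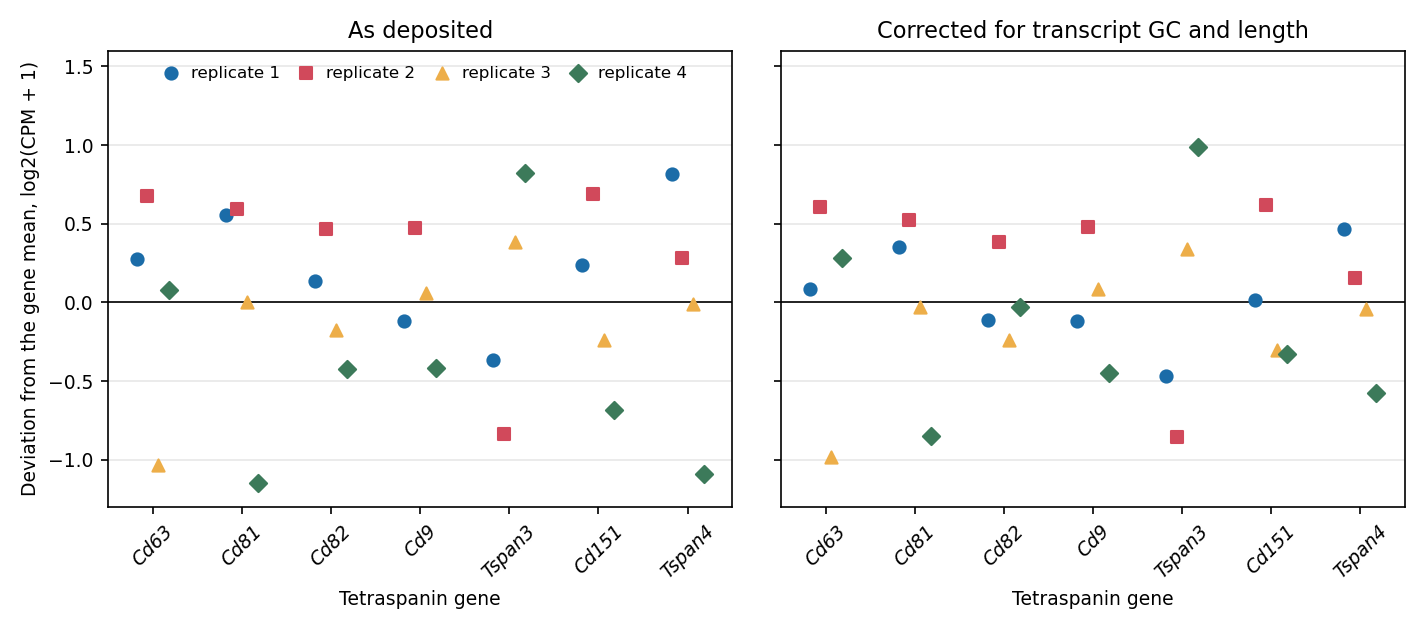
Deviation of each library from the gene's own mean of log2(CPM + 1) for the 7 members with 10 CPM or more, as deposited and after correction for transcript GC content and length. Cd82 draws together after correction (SD 0.27), whereas Cd81 stays low in replicate 4 and Tspan3 stays high there.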

How the data were processed

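The deposited values are log2 CPM with a constant offset, by the authors, with 1 column per library, per the file headers. Trimmomatic 0.33, edgeR, FastQC, featureCounts and mm10 appear in the submitters' processing notes, with no roles. Aligner, annotation, strand setting and batches: not given in the sources used here. CPM had been planned for. The offset of 0.0548 CPM was subtracted from 2 raised to each value. All values (100%) were then whole reads within 1e-06, which gave the depth.

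Gene IDs were matched to GENCODE M21 (21186 of 21264, 99.6%) for coordinates, exon and coding length. GC content is that of the longest coding transcript. For 9 repeated symbols the row with the higher mean was used. Values were also corrected in each library for linear and quadratic terms of GC content and log2 transcript length. Differences used a pseudocount of 1 CPM, which can understate or overstate those of low genes. Tspan4 minus Tspan9 was 4.59 with a pseudocount of 0.1 CPM and 3.40 with 5 CPM. Cd53 minus Cd37 was -0.09 with 0.1 CPM and 1.02 with 5 CPM. Python 3.11.15, numpy 2.4.6, pandas 2.3.3 and scipy 1.17.1 were used, and the code was tested on simulated data. No count model was fitted, for lack of a second group.

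Under the naming rule, genes named are the members and, of each list, genes of 10 CPM or more with a role beside a member or its 3 most abundant. Not every gene it allows is named, and others were named after their values were seen. One gene was taken out of the lists and is not reported here. Members and lists were chosen with earlier results of these data known. Alternatives were other scaling, pseudocounts, lengths, minimum levels and leaving out each library.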

Additional observations from a re-analysis of the deposited data

Results flagged for a closer look

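A single library far from the other three, by Dixon's criterion at the 95% level, was sought in 90 sets of 4 values: the members, the listed genes that averaged at least 10 CPM, the pair differences and the summed lists. Chance marks about 1 in 20 such sets. It was found in 5, none of them a member. Tspan12 was high in replicate 4, at 595 CPM, against 282 to 310 CPM in the other libraries. Tspan13 was high in replicate 2, at 62.99 CPM. Tspan18, Itga7 and Flot2 were low in replicate 4, at 24.95, 293 and 68.3 CPM. Replicate 4 is also the lowest library for Cd81, Cd82, Cd9, Cd151 and Tspan4 before correction for GC content and length. With that correction Cd82 was lowest in replicate 3, with a deviation from its mean of -0.24 against -0.03 in replicate 4. Cd81, Cd9, Cd151 and Tspan4 stayed lowest in replicate 4, Cd151 by little (-0.33 against -0.30 in replicate 3). After correction for GC content and length, the deviation of replicate 4 from the gene's mean on the log2 scale was 0.20 in place of 0.76 for Tspan12, where it equalled that of replicate 1 (0.20), and 0.05 in place of -0.31 for Itga7. It was -0.87 in place of -1.12 for Tspan18 and -0.70 in place of -1.08 for Flot2. The deviation of replicate 2 for Tspan13 was 1.07 in place of 0.996.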

How the results depend on the processing

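No paired analysis was possible because there is 1 group. The count of members with 1 CPM in every library was 8 with a minimum of 0.5 CPM and 7 with 5 CPM or with median-of-ratios size factors, and it ran from 7 to 8 when 1 library was left out. Mean levels of the 10 members moved by less than their SD under all 50 alternatives run. Leaving out 1 of 4 libraries cannot move a mean by as much as its SD, so for those alternatives this outcome was fixed in advance. The mean of Tspan9 was 3.24 CPM without replicate 2, against 5.23 CPM. That of Cd53 was 0.852 CPM without replicate 4, against 1.44 CPM. Of 56 alternative values for the 7 pairs, 50 kept their sign. Cd82 minus Cd81 turned to 0.0298 without length correction and ran from -0.27 to 0.11 when 1 library was left out. Cd53 minus Cd37 turned to -0.0909 with a pseudocount of 0.1 CPM and to -0.13 without length correction, and ran from 0.62 to 1.09 when 1 library was left out. The 4 members with an SD above the median became 2 without replicate 4, with 2 to 5 over the libraries left out, and 3 after the correction for GC content and length. The SD of Tspan4 was 0.44 after that correction and 0.42 without replicate 4, and that of Cd9 was 0.24 without replicate 2. The cause was not tested. With 4 libraries no pair can pass the test, and the few reads of Cd53 and Cd37 limit what can be said of either.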

Other observations

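Among 9201 other genes that averaged at least 10 CPM, those whose deviations from their own mean over the 4 libraries lay nearest to Cd82 were Tmem198b, Smtn and Taf5l, at root-mean-square differences of 0.024, 0.025 and 0.033 on the log2 scale. For Cd9 they were Tnks1bp1 (0.019), Col26a1 (0.024) and Speg (0.035), and for Cd81 they were Tap1 (0.013), Aurkaip1 (0.044) and Med27 (0.044). Within 0.1 of Cd82, Cd9 and Cd81 lay 42, 31 and 17 genes. With 4 libraries such likeness is a description. All distances here used values before the correction for GC content and length, and none was computed after it. Among the members, Cd82 lay nearest to Cd9 (0.17) and to Cd151 (0.18), and Cd81 nearest to Tspan4 (0.21). In replicate 4 the deviations of Cd82 and Cd9 were -0.43 and -0.42, and after the correction -0.03 and -0.45. Tspan3 lay farthest from Cd81 (1.31).

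Markers of fibro-adipogenic cells were also read. Of 8 listed, 7 reached 1 CPM in every library, against 53.6% of all genes. Their sums were 4292, 6043, 7094 and 5609 CPM in replicates 1 to 4, most of it from Col3a1 (4599 ± 992 CPM) and Dpt (1117.5 ± 388 CPM). Dcn came next at 20.1 ± 22.4 CPM, and the median of the 8 was 7.35 CPM. Pdgfra, which defines those cells, stood at 0.768 ± 1.04 CPM. The part of such cells or of endothelial cells in the levels of the members was not tested.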
